A study of Mus musculus with 10 samples.

Results

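The 10 genes described here mark the muscle cells and pericytes of blood vessel walls: Acta2, Tagln, Myh11, Cnn1, Myl9, Smtn, Rgs5, Cspg4, Pdgfrb and Des. They were taken by gene symbol from both deposited expression tables, where all 10 were found among 46977 genes at 12 months and 46786 genes at 3 months. RNA sequencing was done on dissected mouse hearts labelled Prdm16 knockout or control, with 2 knockout and 2 control libraries at 12 months and 3 knockout and 3 control libraries at 3 months. Prdm16 encodes a zinc-finger protein that regulates transcription and is best known from brown fat cells. The labels give no allele, Cre driver, strain or sex for any group, and whether the gene was removed in all cells or in some is not stated. Nothing in the sources used here ties each library to its own animal, and the spread behind each p-value may be technical. Where values are given below for knockout or control hearts, each value is that of a library. The series title speaks of an age-dependent cardiac phenotype, and knockout was therefore set against control at each age and the difference was compared between the ages.

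Vascular smooth muscle cells wrap arteries and veins and set their diameter by contraction of a smooth muscle form of actin and myosin. Pericytes sit on capillaries inside the basement membrane, depend on platelet-derived growth factor signals from endothelium, and are dense in heart muscle. Serum response factor with its cofactor myocardin drives the contractile genes through a DNA element called the CArG box. The contractile members are Acta2 (smooth muscle alpha-actin), Myl9 (a regulatory myosin light chain), Myh11 (smooth muscle myosin heavy chain), Tagln (transgelin, or SM22 alpha) and Cnn1 (calponin 1), both of the last being actin-binding proteins, together with Smtn (smoothelin, a filament-associated protein). Rgs5 (a regulator of G protein signalling), Cspg4 (the NG2 proteoglycan) and Pdgfrb (a receptor for platelet-derived growth factor) are used as pericyte markers. Des encodes desmin, an intermediate filament protein of pericytes and also of cardiomyocytes. Its level in heart tissue is thus not that of vessel cells alone.

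All 10 members are protein-coding genes in GENCODE release M21 (build GRCm38). Acta2 lies on chromosome 19 from 34241090 to 34255590 (minus strand), Myl9 on chromosome 2 from 156775420 to 156781658 (plus strand) and Des on chromosome 1 from 75360329 to 75368579 (plus strand). Promoter windows of 250 bases before to 50 bases after the start were found for 7 of the 10 members in RefSeq (GRCm38.p6). Those of Acta2 and Myl9, the members with the lowest knockout levels relative to control at 12 months, and of Des, the member with the highest, are shown here 5′ to 3′ on the strand of the gene. Capitals mark CArG boxes and CArG-like elements, the second with 1 of the 6 core letters replaced by G or C.
Acta2, chr19:34255324-34255623, minus strand: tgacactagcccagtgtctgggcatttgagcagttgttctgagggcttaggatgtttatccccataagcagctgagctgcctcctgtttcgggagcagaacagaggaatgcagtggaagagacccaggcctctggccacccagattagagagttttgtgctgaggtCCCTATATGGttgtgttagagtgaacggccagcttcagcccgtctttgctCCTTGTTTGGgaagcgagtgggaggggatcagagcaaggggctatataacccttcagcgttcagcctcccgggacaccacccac
Myl9, chr2:156775214-156775513, plus strand: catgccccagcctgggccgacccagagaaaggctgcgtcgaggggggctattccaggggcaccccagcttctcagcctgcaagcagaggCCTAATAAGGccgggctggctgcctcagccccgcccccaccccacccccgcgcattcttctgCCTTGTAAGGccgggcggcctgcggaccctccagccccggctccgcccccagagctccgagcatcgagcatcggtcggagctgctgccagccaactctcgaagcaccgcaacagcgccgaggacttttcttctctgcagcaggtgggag
Des, chr1:75360042-75360341, plus strand: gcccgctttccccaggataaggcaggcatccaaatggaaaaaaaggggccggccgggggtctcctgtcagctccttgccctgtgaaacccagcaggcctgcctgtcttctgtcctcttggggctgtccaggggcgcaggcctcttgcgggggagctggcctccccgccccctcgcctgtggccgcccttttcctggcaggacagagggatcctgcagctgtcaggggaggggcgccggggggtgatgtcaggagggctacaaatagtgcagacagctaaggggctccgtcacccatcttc

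The Acta2 window held 2 CArG-like elements, which began 84 and 34 bases before the start. The Myl9 window held a CArG box at 161 bases and a CArG-like element at 99 bases before the start. No such element was found in the Des, Cnn1, Smtn, Rgs5 or Cspg4 windows. Over all 32851 mouse promoter windows of this length, 1.63% held a CArG box and 9.98% a CArG box or CArG-like element, and among the members 2 of 7 windows held either. The CArG pattern reads alike on both strands. The MCAT element, searched as CATTCC and its complement GGAATG, was found in the Acta2 window at 146 bases and in the Smtn window at 222 bases before the start, against 14.7% of all windows. No match overlapped another, and a match is a description of the letters and not a bound site.

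Levels are in FPKM, in which the authors scaled fragments by transcript length and library depth. Depth read from the low values was 26.4 and 21.7 M reads in the knockout and 29.6 and 31.1 M reads in the control libraries at 12 months, and could not be read at 3 months. The 12-month controls were close to each other (robust SD of the log2 ratio over well-expressed genes 0.0762), while the 12-month knockout libraries were 0.380 apart. On read counts rebuilt from the low-value steps, the chi-square per gene between those controls had a mean of 2.40 and a median of 0.556, where sampling noise alone gives 1 and 0.455. Most genes thus differed little more than noise and the sum over genes did so by more, and the controls were counted as 2 libraries. Prdm16 stood at 4.02 and 3.58 FPKM in knockout hearts against 6.31 and 5.05 FPKM in control hearts at 12 months, and at 1.43, 0.760 and 2.03 FPKM in knockout hearts against 1.44, 2.23 and 1.61 FPKM in control hearts at 3 months. It did not separate the labels at 3 months, and groups are named here as labelled. Xist, from the inactive X chromosome, stood at 0.0911 and 0.0240 FPKM in the 12-month knockout libraries against 33.1 and 31.0 FPKM in the 12-month controls, so genotype and sex-linked expression cannot be told apart in any 12-month difference. At 3 months knockout replicate 2 stood apart (robust SD 0.285 to 0.585 from the other libraries), with shorter transcripts higher than long ones. Cardiomyocyte markers summed to 72562 to 75392 FPKM in knockout and 69077 to 69129 FPKM in control libraries at 12 months, as the tissue label heart implies, and no member was listed at 0 in any library.

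Per unit of transcript length, Des was the most abundant member in all 4 groups. Its level averaged 987 ± 186 FPKM in knockout and 594 ± 5.22 FPKM in control hearts at 12 months (SD, n = 2 each). At 3 months it averaged 622 ± 12.2 FPKM in knockout and 554 ± 82.9 FPKM in control hearts (SD, n = 3 each). Acta2, Myl9, Rgs5 and Smtn followed with group means between 30.8 and 198 FPKM, then Tagln between 23.2 and 34.6 FPKM. Pdgfrb averaged 7.28 to 20.9 FPKM, and Myh11, Cspg4 and Cnn1 lay lowest, with group means of 1.54 to 5.91 FPKM. In the 12-month controls no neighbours in this order overlapped, whereas in the 3-month controls the ranges of Rgs5, Acta2, Smtn, Myl9 and Tagln each overlapped that of the next, as did those of Myh11, Cspg4 and Cnn1.

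At 12 months the contractile genes Acta2 and Myl9 lay at 0.520 and 0.552 of the control level, Pdgfrb lay lower too and Des lay higher, but no member passed the test over all genes. Acta2 had 112 and 93.4 FPKM in knockout hearts, against 198 and 198 FPKM in control hearts. Both knockout hearts lay far below both controls, a ratio of means of 0.520 and a log2 difference of −0.94 (SE 0.14, 95% interval −1.32 to −0.57; limma, Benjamini-Hochberg adjusted p = 0.159). Myl9 had 83.8 and 85.4 FPKM in knockout hearts, against 159 and 148 FPKM in control hearts. The groups did not overlap, with a ratio of 0.552 and a log2 difference of −0.85 (SE 0.11, 95% interval −1.15 to −0.55; limma adjusted p = 0.121). Log2 differences were taken on FPKM + 1, so those of low genes are understated. In heart tissue, fewer cells of a type and less RNA per cell cannot be told apart.

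The other contractile members moved less at 12 months or split between the knockout hearts. Myh11 had 4.80 and 4.78 FPKM in knockout hearts, against 5.83 and 5.98 FPKM in control hearts, groups that did not overlap (log2 −0.26, SE 0.11; limma adjusted p = 0.417). Tagln had 23.6 and 34.2 FPKM in knockout hearts, against 35.5 and 33.7 FPKM in control hearts. Cnn1 had 1.49 and 3.82 FPKM in knockout hearts, against 2.80 and 2.99 FPKM in control hearts. For both genes knockout replicate 1 was lowest of the 4 libraries and the groups overlapped. Smtn went the other way between the knockout hearts, with 92.1 and 37.3 FPKM, against 89.0 and 86.8 FPKM in control hearts.

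Of the pericyte markers, Pdgfrb had 16.6 and 12.0 FPKM in knockout hearts, against 20.5 and 21.2 FPKM in control hearts. These groups did not overlap (log2 −0.53, SE 0.18, 95% interval −1.03 to −0.03; limma adjusted p = 0.355). Cspg4 had 4.72 and 1.74 FPKM in knockout hearts, against 3.94 and 3.92 FPKM in control hearts, so that knockout replicate 1 lay above and knockout replicate 2 below both controls. Rgs5 had 137 and 179 FPKM in knockout hearts, against 137 and 139.7 FPKM in control hearts, with overlap and a log2 difference of 0.18 that became −0.15 after rescaling to TPM. Des, which cardiomyocytes also make, had 855 and 1118 FPKM in knockout hearts, against 590.1 and 597 FPKM in control hearts. Both knockout hearts were higher, a ratio of 1.66 and a log2 difference of 0.72 (SE 0.17, 95% interval 0.25 to 1.19; limma adjusted p = 0.254).

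**Figure D1:**
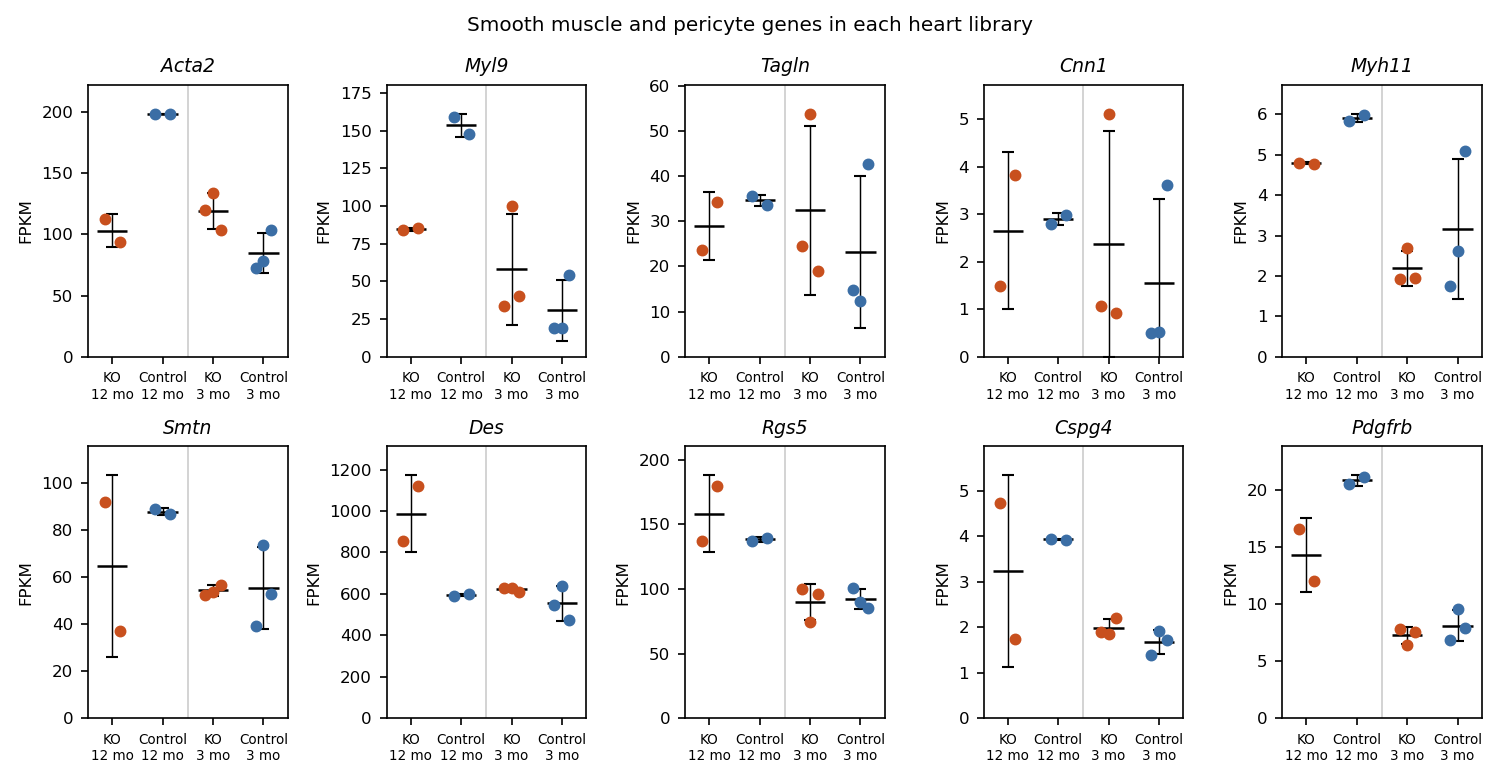
FPKM of each member (vertical axis from 0) in every library, in knockout (KO, orange) and control (blue) hearts at 12 and 3 months; points are libraries, black lines group means and bars 1 SD (n = 2 each at 12 months, n = 3 each at 3 months; the lower bars of Cnn1 at 3 months are clipped at 0). At 12 months both knockout points of Acta2 and Myl9 lie below both controls and those of Des above, while at 3 months the points of Tagln, Cnn1 and Myl9 spread widely within each group.

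In all, 8 of the 10 members had a lower mean log2 value in 12-month knockout hearts, against 48.5% of all genes tested, and 2 a higher, against 51.5%, with a median log2 difference of −0.30 against 0.01 over the 13179 genes tested. The groups did not overlap for 5 members (4 lower, 1 higher), against 50.3% of all genes tested, 23.0% with knockout lower and 27.3% with knockout higher. Limma called 0 of 10 at an adjusted p under 0.05, against 0.395% of all genes tested, and 4 of 10 (Acta2, Myl9, Pdgfrb and Des) had an unadjusted p under 0.05, against 13.6%. For the 5 members without overlap an exact permutation test (two-sided) gave p = 0.333, the lowest value possible with 2 against 2. Without knockout replicate 1 limma called 7 members (Acta2, Myl9, Smtn, Rgs5, Cspg4, Pdgfrb and Des) and without knockout replicate 2 it called 3 (Acta2, Myl9 and Des), where the spread comes from the 2 near-identical controls alone and the calls over all genes were 4409 (33.4%) and 654 (4.98%).

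At 3 months, by contrast, no contractile gene lay at a lower level in every knockout heart, and the spread within a group was wide. Acta2 had 120.0, 133 and 104 FPKM in knockout hearts, against 72.2, 78.4 and 103 FPKM in control hearts. The groups were separated by less than 1 FPKM between the lowest knockout and the highest control heart. The log2 difference was 0.50 (SE 0.17, 95% interval 0.12 to 0.87; limma adjusted p = 0.192), while an exact permutation test (two-sided) gave 0.1, the lowest value possible with 3 against 3. Myl9 had 33.8, 100.1 and 40.1 FPKM in knockout hearts, against 19.4, 19.0 and 54.0 FPKM in control hearts. Tagln had 24.5, 53.8 and 19.0 FPKM in knockout hearts, against 14.9, 12.3 and 42.6 FPKM in control hearts. Cnn1 had 1.07, 5.11 and 0.926 FPKM in knockout hearts, against 0.509, 0.514 and 3.60 FPKM in control hearts. In these 3 genes knockout replicate 2 was highest of all, control replicate 3 came next, and the groups overlapped. Myh11 had 1.92, 2.68 and 1.96 FPKM in knockout hearts, against 1.74, 2.63 and 5.09 FPKM in control hearts, and Smtn had 52.4, 53.9 and 56.9 FPKM in knockout hearts, against 39.3, 73.8 and 52.7 FPKM in control hearts.

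The pericyte markers differed little at 3 months. Rgs5 had 100.1, 74.1 and 96.0 FPKM in knockout hearts, against 100.5, 90.03 and 85.4 FPKM in control hearts, and the 95% interval of its log2 difference ran from −0.38 to 0.30. Pdgfrb had 7.83, 6.43 and 7.60 FPKM in knockout hearts, against 6.87, 9.61 and 7.96 FPKM in control hearts (interval −0.46 to 0.19). Cspg4 had 1.90, 1.86 and 2.20 FPKM in knockout hearts, against 1.40, 1.93 and 1.73 FPKM in control hearts (interval −0.14 to 0.45). All 3 overlapped between the groups, as did Des, with 628, 631 and 608 FPKM in knockout hearts, against 546, 640.5 and 475 FPKM in control hearts (interval −0.16 to 0.52).

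Limma called 0 of 10 members at 3 months, against 0.746% of all genes tested, and 1 of 10 (Acta2) had an unadjusted p under 0.05, against 18.2%. The groups did not overlap for 1 member, Acta2, against 24.7% of all genes tested (20.1% with knockout higher), and after median-of-ratios rescaling for 0. A higher mean log2 value in knockout hearts was found in 7 members, against 65.0% of all genes tested, and a lower in 3, against 35.0%. The median log2 difference was 0.17, against 0.09 over the 12200 genes tested, and relative to that median 6 of 10 members lay above and 4 below. Without control replicate 3 the groups did not overlap for 4 members (34.8% of all genes), without control replicate 2 for 3 (38.4%) and without control replicate 1 for 2 (39.2%).

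**Figure D2:**
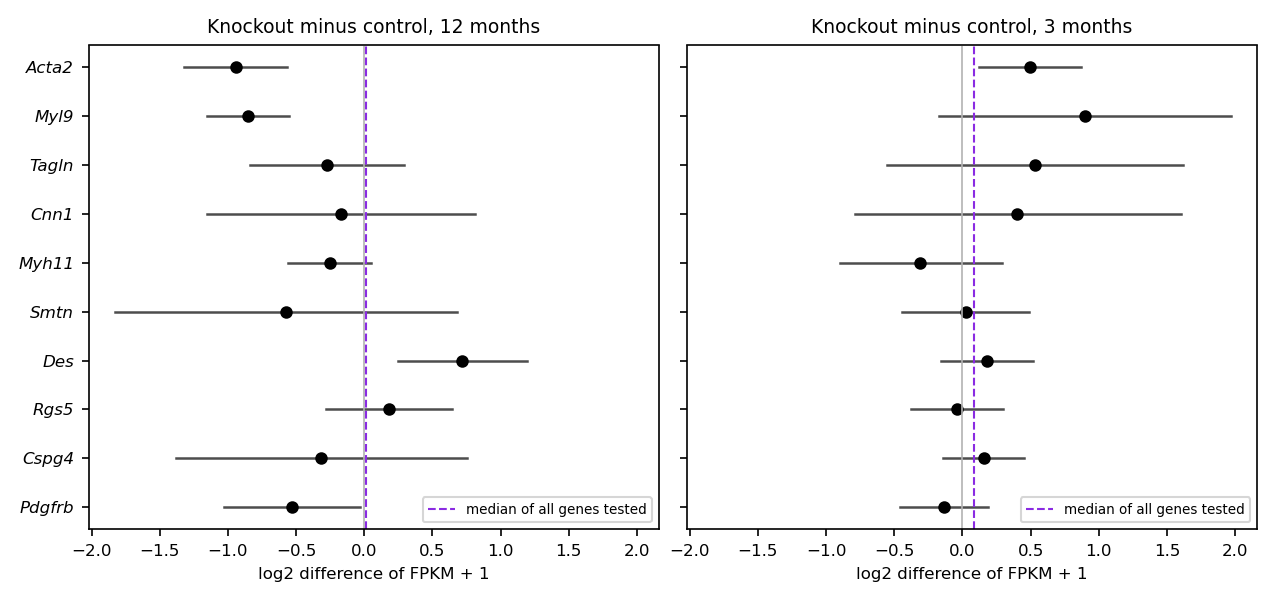
Log2 difference of FPKM + 1, knockout minus control, for each member (vertical axis) at 12 months (left) and 3 months (right); dots are estimates, lines 95% intervals from limma, and the dashed line is the median of all genes tested. Acta2 lies at −0.94 at 12 months and at 0.50 at 3 months, and Myl9 at −0.85 and 0.90, with the second 3-month interval crossing 0.

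The difference between knockout and control was then compared between the ages, in a fit over all 10 libraries. Acta2 passed: its log2 difference was −0.94 at 12 months and 0.50 at 3 months, a gap of −1.44 (SE 0.25; limma, Benjamini-Hochberg adjusted p = 0.0198). It was the only 1 of 10 members called, against 1.38% of the 11580 genes tested at both ages. Acta2 thus had both 12-month knockout hearts below their controls and all 3-month knockout hearts above theirs, a pattern held by 3.69% of those genes. The Acta2 call was lost without 12-month control replicate 1 (adjusted p = 0.123) or 2 (0.119), 3-month control replicate 2 (0.0620) or 3-month knockout replicate 1 (0.0612). The adjusted p ran from 0.00897 to 0.123 over 19 alternatives, in which the gap stayed between −1.66 and −1.31 and the call was kept in 14. Myl9 had the widest gap among the members, −1.75, but with an SE of 0.68 (limma adjusted p = 0.258). Des had a gap of 0.54 (SE 0.24; limma adjusted p = 0.312), and the other 7 members had gaps between −0.81 and 0.22 with adjusted p of 0.464 or more. Myl9 and Des also had an unadjusted p under 0.05, which makes 3 of 10 members against 15.3% of all genes. Without 12-month knockout replicate 1, 2 members passed, Acta2 and Cspg4 (−1.003; limma adjusted p = 0.0187), in a fit that called 787 genes (6.79%).

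Within a group the members did not move as a single block. Averaged over Acta2, Tagln, Myh11, Cnn1 and Myl9 after centring each age, the log2 level was −0.37 and −0.13 in knockout hearts and 0.26 and 0.24 in control hearts at 12 months. At 3 months it was −0.08, 0.85 and −0.16 in knockout hearts and −0.63, −0.58 and 0.60 in control hearts, so that 1 library of each label was far above the rest. Smtn, Cspg4 and Pdgfrb followed another order and were lowest of the 12-month libraries in knockout replicate 2. These have transcripts of 3117, 8121 and 5415 bases, whereas Myl9, Tagln, Cnn1 and Acta2 have 1128, 1595, 1803 and 2035 bases. Myh11, with a long transcript of 6450 bases, did not follow that order and was level between the 12-month knockout replicates (4.80 and 4.78 FPKM). Acta2, too, was lowest of the 12-month libraries in knockout replicate 2 (93.4 FPKM, against 112 FPKM in knockout replicate 1). Des and Rgs5, with transcripts of 3028 and 2409 bases, were highest of the 12-month libraries in that replicate (1118 and 179 FPKM). Relative to the mean of each age, transcripts of at most 1500 bases stood above those of at least 4000 bases by 0.43 (log2) in 3-month knockout replicate 2 and by 0.35 in 12-month knockout replicate 2, against −0.36 to 0.09 in the other 8 libraries. With the length trend removed from each library, an alternative added after the data were seen, 0 members were called at either age and Acta2 kept its gap between the ages (−1.35; limma adjusted p = 0.0302).

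**Figure D3:**
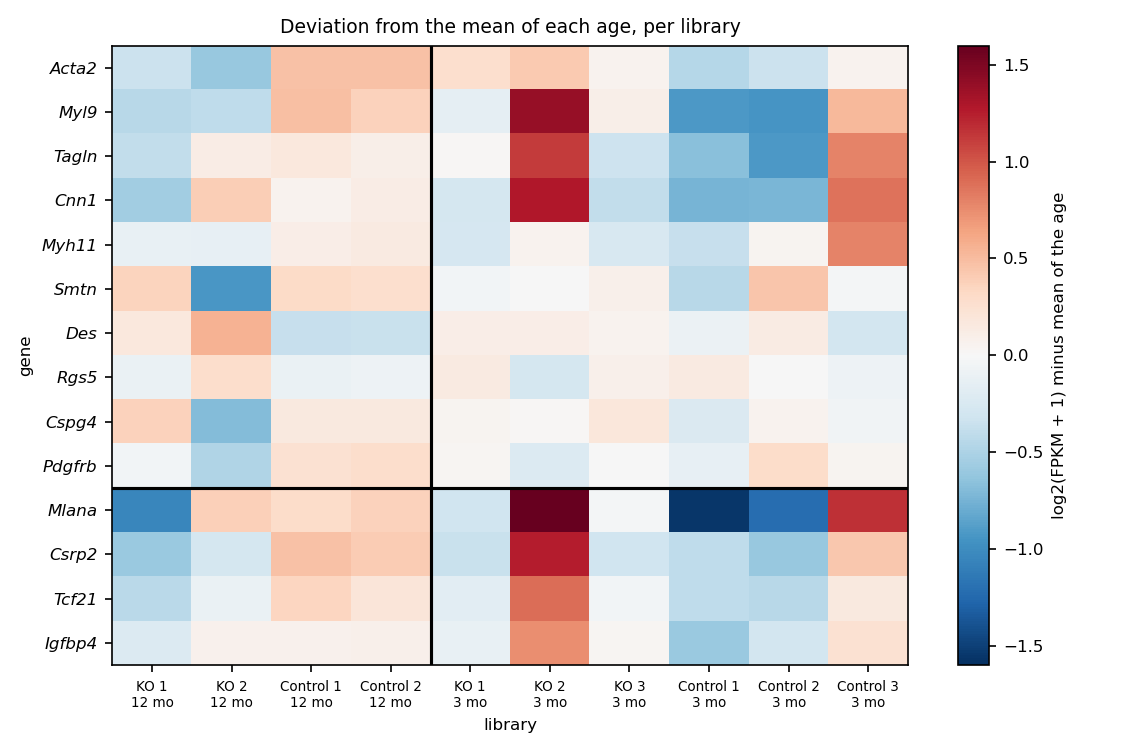
Deviation of log2(FPKM + 1) from the mean of its age (colour) for the 10 members and, below the black line, 4 of the 8 genes most like the contractile members, in each library (columns; knockout, KO, left of control at each age). Knockout 2 and control 3 at 3 months are high in Myl9, Tagln and Cnn1, and 12-month knockout 2 is low in Smtn, Cspg4 and Pdgfrb.

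Among 9788 genes compared, those whose pattern over the 10 libraries was most like that 5-gene mean included Mlana (Pearson r 0.96), Csrp2, Gm13092, Igfbp4, Tcf21 and RP23-346J12.1 (all 0.93), and Lrrn2 (0.92). Mlana, a melanocyte gene, had 2.48 and 8.29 FPKM in knockout hearts, against 7.76 and 8.26 FPKM in control hearts at 12 months. At 3 months it had 2.52, 16.0 and 3.26 FPKM in knockout hearts, against 0.490, 0.873 and 8.81 FPKM in control hearts, again highest in knockout replicate 2 and control replicate 3. Atrial markers summed to 13732 to 15987 FPKM in knockout and 6239 to 6399 FPKM in control hearts at 12 months. There 4 of 9 were higher and 5 of 9 lower, against 51.5% and 48.5% of all genes tested. Limma called 0, against 0.395%, and 3 had an unadjusted p under 0.05, against 13.6%. At 3 months they summed to 12361 to 28791 FPKM in knockout and 724 to 6256 FPKM in control hearts. Of the 9, 8 were then higher and 1 lower, against 65.0% and 35.0% of all genes tested. Limma called 1, against 0.746%, and 5 had an unadjusted p under 0.05, against 18.2%. Nppa (log2 1.99) made up most of the 12-month sum, while Bmp10 (−3.35), Myl7 (−1.89), Sln (−1.75), Myl4 (−0.69) and Sbk2 (−0.03) were the 5 lower and Dkk3 (1.08), Stard10 (0.63) and Fgf12 (0.47) were also higher. Myl7 and Bmp10, singled out after their values were seen, are given per library. Bmp10 had 2.58, 68.1 and 0.619 FPKM in 3-month knockout hearts, against 3.24, 4.82 and 63.1 FPKM in 3-month control hearts. At 12 months Bmp10 had 0.230 and 25.2 FPKM in knockout hearts, against 56.0 and 57.5 FPKM in control hearts, lowest in the replicate that was lowest for Tagln and Cnn1. Myl7 had 153 and 749 FPKM in 12-month knockout hearts, against 1275 and 1244 FPKM in 12-month control hearts. The part of atrial tissue in the members' values was not tested.

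Markers of other cells also differed between the labels. Of all genes tested, 48.5% were lower at 12 months, and 65.0% were higher and 35.0% lower at 3 months. Limma called 0.395% of all genes at 12 months and 0.746% at 3 months, and 13.6% and 18.2% had an unadjusted p under 0.05. Of the red blood cell markers 6 of 6 tested were lower at 12 months, and 6 were called by limma. Their summed levels were 1959 to 2160 FPKM in knockout and 10664 to 10798 FPKM in control hearts. At 3 months 6 of 6 were higher and 5 were called (2083 to 3114 FPKM in knockout, 820 to 1114 FPKM in control hearts). Fibroblast markers were lower in 9 of 12 at 12 months, against 48.5% of all genes tested (median log2 −0.27, 0 called by limma, 5 with an unadjusted p under 0.05). They were higher in 11 of 12 at 3 months, against 65.0% of all genes tested (median 0.22, 0 called, 1 unadjusted). Their gap between the ages was below 0 in 12 of 12, against 6859 of all 11580 genes tested at both ages. Their summed levels were 1671 to 1758 FPKM in knockout and 1714 to 1727 FPKM in control hearts at 12 months, and 781 to 1317 FPKM in knockout and 669 to 925 FPKM in control hearts at 3 months. Epicardial markers were lower in 6 of 7 tested at 12 months (median −0.83, 0 called by limma, 2 unadjusted), with sums of 9.25 to 28.4 FPKM in knockout and 39.0 to 39.3 FPKM in control hearts. Adipocyte markers were lower in 7 of 8 tested at 12 months (3 called by limma, 7 with an unadjusted p under 0.05). Their sums were 32.9 to 52.9 FPKM in knockout and 107 to 110.3 FPKM in control hearts. Airway markers were lower in 3 of 3 tested at 3 months (2 called by limma). Their sums were 0.151 to 0.319 FPKM in knockout and 14.3 to 38.7 FPKM in control hearts. Control replicate 2, which had the highest airway sum, had the lowest Tagln (12.3 FPKM) and Myl9 (19.0 FPKM) and the highest Smtn (73.8 FPKM), Pdgfrb (9.61 FPKM) and Des (640.5 FPKM) of all 3-month libraries. Endothelial markers summed to 426 to 465 FPKM in knockout and 467 to 469 FPKM in control hearts at 12 months, with 0 of 12 called at either age by limma and 2 with an unadjusted p under 0.05 at each. The part of these other cells in the members' values was not tested, and no gene of the red blood cell, fibroblast, epicardial, adipocyte or endothelial lists was at 0 in every library of an age. Of the 6 airway genes, 5 were listed at 0 in all 12-month libraries and 1, Sftpc, in all 3-month libraries.

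The wider set of vessel wall genes was read from 6 lists holding 134 genes, chosen by hand with earlier results of these data known. Among other smooth muscle contractile genes 0 of 23 were called at 12 months and 0 of 20 at 3 months by limma. An unadjusted p under 0.05 was found in 3 and 5, against 13.6% and 18.2% of all genes tested. At 12 months 14 of 23 were lower in knockout hearts, against 48.5% of all genes tested (median log2 −0.10, against 0.01). At 3 months 15 of 20 were higher, against 65.0% of all genes tested (median 0.14, against 0.09). Ppp1r14a, an inhibitor of myosin phosphatase, had 4.98 and 6.496 FPKM in knockout hearts, against 10.2 and 9.84 FPKM in control hearts at 12 months. At 3 months it had 16.0, 25.9 and 15.6 FPKM in knockout hearts, against 10.2, 12.2 and 14.6 FPKM in control hearts. It thus stood apart from control downwards at 12 months and upwards at 3 months, like Acta2, with a gap of −1.29 (SE 0.31; limma adjusted p = 0.0791). Rasl12 (log2 −0.48) and Itga8, an integrin subunit (−0.46), came next at 12 months, and Cnn2, calponin 2 (0.49), and Pdlim7 (0.34) were first at 3 months by p.

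Among the other pericyte and mural genes 17 of 23 were lower in 12-month knockout hearts, against 48.5% of all genes tested. The median log2 difference was −0.22, and 0 were called by limma (6 with an unadjusted p under 0.05, against 13.6%). Mcam, an adhesion molecule of mural cells and endothelium, had 16.8 and 18.0 FPKM in knockout hearts, against 25.4 and 25.6 FPKM in control hearts (log2 −0.52; limma adjusted p = 0.226). Tbx18, a mural cell transcription factor, differed by −0.59. Of the pericyte channel genes, Kcnj8 had 18.0 and 20.1 FPKM in 12-month knockout hearts, against 21.98 and 22.7 FPKM in control hearts, and Abcc9 overlapped. At 3 months 15 of 21 were higher, against 65.0% of all genes tested (median 0.12, against 0.09). Limma called 1, against 0.746%. Colec11, a collectin, rose to 9.54, 10.9 and 9.53 FPKM in knockout hearts, against 6.00, 5.43 and 5.15 FPKM in control hearts (log2 0.75, SE 0.12; limma, Benjamini-Hochberg adjusted p = 0.0280). No fit that left out a library kept this call (adjusted p = 0.0538, 0.123 and 0.116 without control replicates 1, 2 and 3, and 0.0701, 0.0693 and 0.0706 without knockout replicates 1, 2 and 3). It was also lost after rescaling to TPM (0.212), without a filter on low values (0.101) and with the length trend removed (0.0565).

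The regulators of the contractile genes included no called gene at either age (0 of 20 each by limma). An unadjusted p under 0.05 was found in 6 at 12 months and 1 at 3 months, against 13.6% and 18.2% of all genes. In knockout hearts 15 of 20 were lower at 12 months, against 48.5% of all genes tested (median log2 −0.27). At 3 months 16 of 20 were lower, against 35.0% of all genes tested (median −0.073). Srf, serum response factor, had 24.8 and 24.5 FPKM in knockout hearts, against 27.1 and 25.9 FPKM in control hearts at 12 months (log2 −0.10; limma adjusted p = 0.684). Myocd, myocardin, had 16.2 and 9.25 FPKM in knockout hearts, against 15.4 and 15.8 FPKM in control hearts at 12 months, the lower value again in knockout replicate 2. Both were chosen for their role, outside the rule for named genes. Klf4, a factor known to repress contractile genes in smooth muscle, had 18.0 and 18.8 FPKM in knockout hearts, against 10.99 and 10.2 FPKM in control hearts at 12 months. At 3 months Klf4 had 7.03, 5.89 and 6.95 FPKM in knockout hearts, against 8.03, 8.48 and 8.48 FPKM in control hearts. Its gap between the ages passed (1.04, SE 0.16; limma adjusted p = 0.0139), opposite in sign to that of Acta2. The adjusted p of Klf4 was 0.0877 and 0.119 without 12-month control replicates 1 and 2, and 0.196 after rescaling to TPM. Smad3, a carrier of TGF-beta signals, had 3.87 and 4.63 FPKM in knockout hearts, against 8.47 and 10.2 FPKM in control hearts at 12 months (log2 −0.97; limma adjusted p = 0.179).

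Signals that recruit mural cells or set their tone were called in 0 of 36 at 12 months and 0 of 35 at 3 months by limma. At 12 months 11 (8 higher and 3 lower) had an unadjusted p under 0.05, against 13.6% of all genes tested. At 3 months 4 did, against 18.2%. In all, 20 of 36 were lower in knockout hearts at 12 months, against 48.5% of all genes tested (median log2 −0.066). At 3 months 18 of 35 were lower, against 35.0% of all genes tested (median −0.004). Pdgfd, a ligand of the receptor that Pdgfrb encodes, had 6.66 and 7.02 FPKM in knockout hearts, against 3.83 and 3.97 FPKM in control hearts at 12 months. The endothelial receptor genes S1pr1 (37.0 and 47.6 FPKM in knockout, 21 and 21.3 FPKM in control hearts) and Acvrl1 (28.5 and 27.2 FPKM in knockout, 15.6 and 15.1 FPKM in control hearts) also lay higher without overlap. Adra1a, an alpha-1 adrenergic receptor of muscle, had 6.05 and 5.53 FPKM in knockout hearts, against 3.44 and 3.42 FPKM in control hearts at 12 months. At 3 months Adra1a had 1.44, 1.36 and 1.70 FPKM in knockout hearts, against 2.93, 3.42 and 2.30 FPKM in control hearts. The gap of 1.24 between the ages passed (SE 0.20; limma adjusted p = 0.0167), and was lost without 12-month control replicate 1 (adjusted p = 0.110) or 2 (0.112) or 3-month knockout replicate 1 (0.0525), or after rescaling to TPM (0.133).

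In the matrix of the vessel wall 13 of 18 genes were lower in 12-month knockout hearts, against 48.5% of all genes tested (median log2 −0.31). Limma called 1, against 0.395%. Eln, elastin, fell to 9.94 and 9.91 FPKM in knockout hearts, against 69.3 and 68.3 FPKM in control hearts (log2 −2.68, SE 0.10; limma, Benjamini-Hochberg adjusted p = 0.00806). Without control replicate 1 or 2 that call was lost (limma adjusted p = 0.180 and 0.200), with the difference at −2.67 and −2.69. At 3 months Eln overlapped, with 12.0, 18.7 and 15.8 FPKM in knockout hearts, against 10.1, 13.4 and 19.5 FPKM in control hearts, and its gap between the ages of −2.81 (SE 0.34; limma adjusted p = 0.00261) passed in all 19 alternatives. The microfibril genes Fbn1 (4.74 and 6.76 FPKM in knockout, 13.7 and 14.3 FPKM in control hearts) and Mfap2 (1.72 and 2.102 FPKM in knockout, 5.53 and 5.56 FPKM in control hearts) lay lower at 12 months without passing. The gap of Fbn1 passed (−1.09, SE 0.21; limma adjusted p = 0.0311) but held in 7 of 18 alternatives. The call was lost without any 1 of the 12-month controls (adjusted p = 0.151 and 0.186), the 3-month controls (0.0667 to 0.0764) and 3-month knockout replicates 1 and 3 (0.0761 and 0.0798), and likewise after rescaling to TPM (0.0670), without a filter on low values (0.0599) and with the length trend removed (0.0948). No matrix gene was called at 3 months (0 of 18 by limma, unadjusted p under 0.05 in 2, against 18.2%).

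The intermediate filament and desmin partner genes had 8 of 12 higher in 12-month knockout hearts, against 51.5% of all genes tested (median log2 0.13). Limma called 0 of them, and 1 had an unadjusted p under 0.05, against 13.6% of all genes tested. Cryab, the chaperone of desmin, had 1240.1 and 1447 FPKM in knockout hearts, against 967 and 969 FPKM in control hearts (log2 0.47; limma adjusted p = 0.298). Synm, synemin, differed by 0.36 and Myoz2 by 0.26. At 3 months 0 of 12 were called by limma (1 with an unadjusted p under 0.05, against 18.2% of all genes tested). Synpo2l (0.56), Synm (0.29) and the intermediate filament gene Vim (0.38) came first by p.

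**Figure D4:**
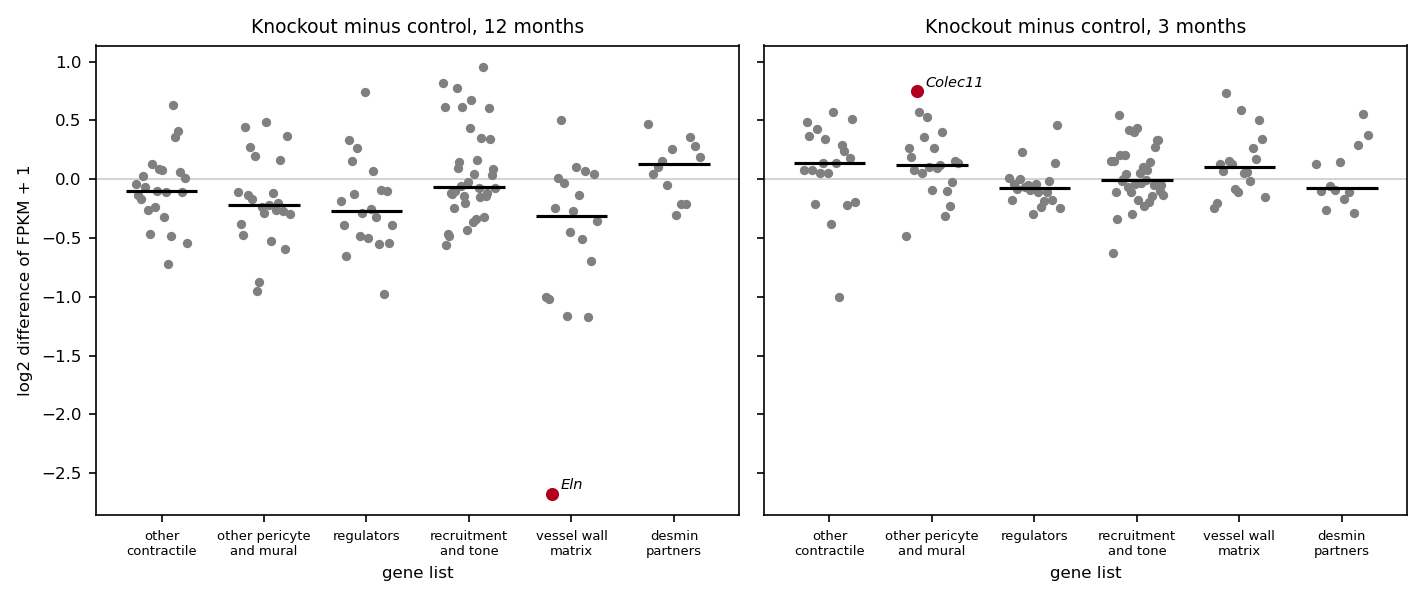
Log2 difference of FPKM + 1, knockout minus control, for each tested gene of the 6 related lists (horizontal axis) at 12 months (left) and 3 months (right); grey dots did not pass, red dots passed limma at an adjusted p under 0.05, and black lines are list medians. Eln at −2.68 and Colec11 at 0.75 are the called genes.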

How the data were processed

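RNA of dissected hearts was sequenced at 12 and 3 months. The authors deposited FPKM values in 1 table per age, with no counts. Per the submitters' processing notes the tools were Cufflinks 2.1.1, STAR 2.5.1b and TopHat2 2.1.0, and the build GRCm38 (mm10), with no roles given. The 3-month libraries were stranded poly(A) libraries and the 12-month libraries came from another facility, per the labels' protocols, so tests were run within an age. At 3 months 69 rows repeated an identifier and were summed. Genes were matched by versioned identifier to GENCODE M21. Depth at 12 months was read from steps of whole reads in low values, of which 85.8% to 87.6% lay within 0.05 of a whole number, and at 3 months 18.2% to 28.8% did, so that depth is unknown.

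Genes averaging at least 1 FPKM within an age were tested on log2(FPKM + 1) with limma 3.58.1 (R 4.3.3), empirical Bayes with a trend and Benjamini-Hochberg adjustment over all of them, and called at an adjusted p under 0.05. All 10 members passed this filter at both ages. The gap between ages was an interaction contrast over 4 group means. Summaries of lists are counts and medians with no set test. The pipeline was tested on simulated data. The members and lists were chosen with earlier results of these data known. Named genes were all members, the 3 of lowest p per related list and age, called genes, the 8 most like the contractile members, and Prdm16, of which 2 are not reported here. Alternatives covered scaling, pseudocount, filter, trend, a replicate block, each library left out and, added after the data were seen, removal of a transcript length trend (lengths matched for 88.2% of tested genes at 12 months and 88.4% at 3 months).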

Additional observations from a re-analysis of the deposited data

Results flagged for a closer look

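Among the 10 members and the 6 related lists, 5 genes had a knockout-minus-control difference that itself differed between the ages, by the interaction contrast of limma over all 10 libraries, which called 160 of 11580 genes tested. Acta2, the smooth muscle actin gene, had a gap of −1.44 on the log2(FPKM + 1) scale (12 months minus 3 months). Eln, elastin, had a gap of −2.81 and Fbn1, fibrillin 1, a gap of −1.09. Klf4 had a gap of 1.04 and Adra1a a gap of 1.24, both in the other direction. The libraries of the 2 ages were prepared and tabulated separately, and at 12 months the labels also differ in sex-linked expression, so age, preparation and sex-linked expression cannot be told apart in these gaps.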

How the results depend on the processing

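Leaving out 1 library at a time, limma called 0 to 7 members at 12 months (0 without either control, 7 without knockout replicate 1, 3 without knockout replicate 2), and the member median ran from −0.50 to −0.28. The groups then did not overlap for 5 to 10 members (63.5% to 89.1% of all genes), and 0 to 49 genes of the 6 related lists passed, where 0 to 4409 of all genes did. At 3 months the groups did not overlap for 1 to 4 members (28.4% to 39.2% of all genes), 0 genes of the related lists passed in every such fit, and 0 members did. Between the ages 0 to 2 members and 1 to 10 genes of the related lists passed, where 40 to 787 of all genes did. Some uncalled members changed sign: with a library left out, Myh11 ran from −0.57 to 0.008, Cnn1 from −0.14 to 0.94, Smtn from −0.20 to 0.25 and Rgs5 from −0.12 to 0.10 at 3 months. At 12 months Cnn1 ran from −0.65 to 0.31, Smtn from −1.22 to 0.066, Rgs5 from −0.015 to 0.37 and Cspg4 from −0.85 to 0.22. The gaps between the ages ran from −0.26 to 0.31 for Myh11, from −1.24 to 0.043 for Smtn and from −1.003 to 0.057 for Cspg4.

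Rescaling to TPM put the median of all genes at 12 months at −0.27, against 0.01 without it, and that of the members at −0.57, so that 8 of 10 members still lay below the median of all genes. With TPM the groups did not overlap for 8 members at 12 months (65.7% of all genes, against 50.3% without rescaling), Rgs5 became −0.15 and Myoz2 −0.064, and the gaps between the ages became −0.11 for Myh11 and −0.004 for Rgs5. With TPM 2 genes of the related lists passed for the gap between the ages, and 2 did at a filter of 5 FPKM. At 3 months Smtn became −0.081 with median-of-ratios rescaling, −0.079 with TPM and −0.003 with the length trend removed. The related list call at 3 months (Colec11) became 0 with TPM, without a filter and with the length trend removed, and median-of-ratios rescaling left 0 members without overlap. Other scalings, pseudocounts, filters and the fit without a trend left 0 member calls at each age and the Acta2 gap called. The cause of these changes was not tested.

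Same-numbered knockout and control libraries did not deviate together (correlations −0.12, −0.46 and −0.14 at 3 months and −0.01 at 12 months), so the numbers do not pair the libraries. No library correlated best with its own number. With the replicate block limma called 0 members at either age, 0 members for the gap between the ages (Acta2 adjusted p = 0.112), 0 related list genes at 3 months and 1 between the ages.

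Groups hold 2 or 3 libraries, and at 12 months the tests rest on controls that hardly differ. Depth at 3 months is unknown. Cnn1, the lowest member by mean in the 3-month controls, ran from 0.509 to 5.11 FPKM over the 3-month libraries.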
